A study of Rattus norvegicus with 6 samples.

Results

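The genes described here encode enzymes of antioxidant defence. They are Hmox1, Nqo1, Sod1, Sod2, Sod3, Cat, Gpx1, Gclc, Gclm and Txnrd1, chosen by name, and 11 of the 30367 probes on the array carry them. They make up 10 of the 17507 genes named on the array. The hippocampus of male Wistar rats (the labels spell the strain Wister) was studied after both common carotid arteries had been tied off for good (bilateral common carotid artery occlusion, BCCAo), which leaves the brain with a lasting shortage of blood. RNA was taken from control rats, labelled 12 weeks old, and at day 21, day 35, day 45, day 55 and day 70 after the operation, from rats labelled 13, 14, 15, 16 and 17 weeks old. These ages do not run parallel to the days, and age and time cannot be told apart. RNA was pooled, and each group was hybridised to 1 one-colour Agilent array. How many rats made up a pool, and whether controls were sham-operated, is not stated in the labels.

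Superoxide dismutases turn superoxide into hydrogen peroxide, and catalase and glutathione peroxidases remove that peroxide. Glutathione is made by glutamate-cysteine ligase, while thioredoxin reductase keeps the thioredoxin system reduced. Many of these genes are known targets of the transcription factor Nrf2, which is held back by Keap1 in unstressed cells, and Hmox1 is repressed by Bach1. In the brain these enzymes are known for protecting neurons and glia against oxidants that form when blood flow is disturbed.

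Levels below are scaled signals in percent of the array's own 75th percentile, and they compare arrays for 1 probe, never 1 gene with another. Differences are on the log2 scale, each day minus control, and a gene was counted as changed at 2-fold or more. Each group has 1 array, so the spread between animals is unknown, no test was made, and the precision is limited by the number of arrays. The scanner software's error model put the SD of a member's difference between arrays at 0.20 to 0.22 log2 units. The 75th percentile ranged from 1243 to 1504 intensity units, and 74.5 to 80.2% of spots were well above background. One slide carried the arrays of the control, day 21 and day 35, and a further slide those of day 45, day 55 and day 70, so for those last days slide and time cannot be told apart in a difference from the control. Of the hippocampal markers, 6 or 7 of 7 pyramidal cell genes and 5 or 6 of 6 dentate granule cell genes were well above background on each array, Spink8 and Tdo2 being the ones that were not.

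Of the 11 probes, 3 are printed here 5′ to 3′, as the array files give them. Those of Hmox1 and Nqo1 lay above the control at day 21 by more than 2 error SDs, and the upstream Txnrd1 probe, which did not pass that mark, is shown because it runs opposite to the gene's other probe. In build rn4 the Hmox1 probe lies at chr19:13969336-13969395 on the plus strand, the Nqo1 probe at chr19:37251727-37251786 on the minus strand and the upstream Txnrd1 probe at chr7:23065196-23065255 on the minus strand. No exon annotation of that build was used here.
Hmox1: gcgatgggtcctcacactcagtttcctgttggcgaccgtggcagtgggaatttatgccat
Nqo1: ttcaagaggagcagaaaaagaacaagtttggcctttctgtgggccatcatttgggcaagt
Txnrd1, upstream probe: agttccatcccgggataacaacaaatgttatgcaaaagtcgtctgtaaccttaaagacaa

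Of the 10 genes, 1 changed by 2-fold or more, and on 1 array. Hmox1 rose at day 21, and every other difference from the control stayed under 2-fold. Gclm could not be followed, which leaves 9 genes and 45 differences, of which 44 were under 2-fold. The largest of these 44 was 0.47 in size. At day 21, 1 of the 9 genes was at least 2-fold higher, against 3.61% of all 13916 genes compared, and 0 were at least 2-fold lower, against 1.88%. From day 35 to day 70 the count was 0 in both directions. Over all genes 0.452% were higher at day 35, 0.596% at day 45, 0.652% at day 55 and 0.663% at day 70. The shares of all genes that were lower were 1.13% at day 35, 5.78% at day 45, 4.98% at day 55 and 6.7% at day 70. The median difference of the 9 genes was 0.13, -0.06, -0.00, 0.07 and 0.02 in order of the days, beside -0.07, -0.04, -0.06, -0.04 and -0.04 over all genes.

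**Figure D1:**
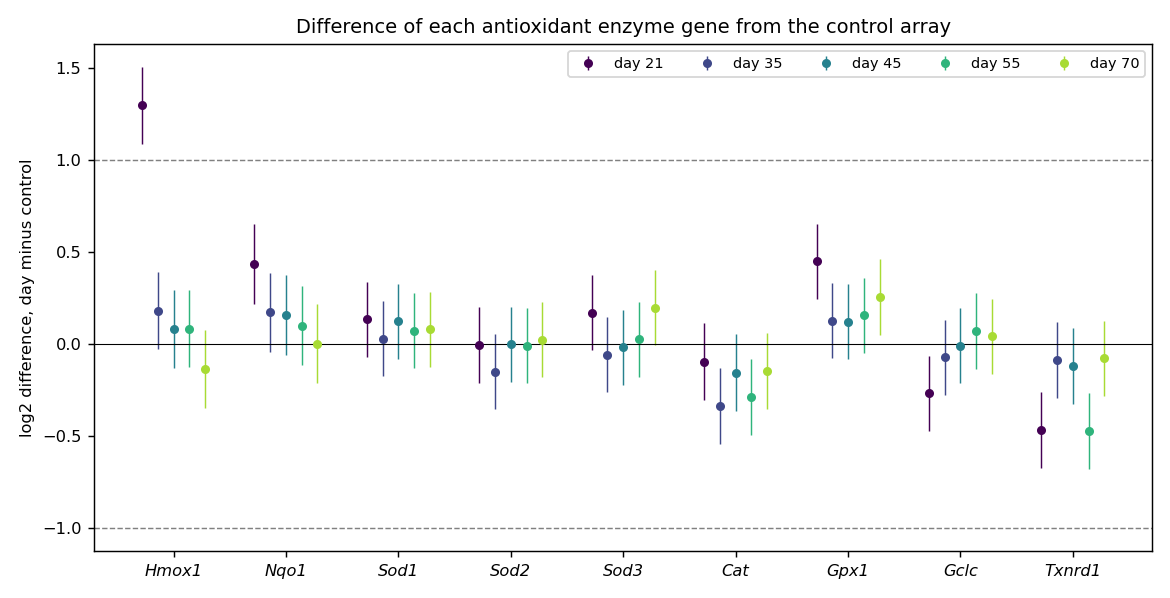
Log2 difference of each day from the control array (y axis) for the 9 genes that could be followed (x axis). Points are days, bars are 1 SD of the scanner software's error model, and the dashed lines mark 2-fold. Hmox1 at day 21 is the 1 point beyond them.

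Against the narrower yardstick of 2 error SDs, 5 of the 45 differences stood out. Hmox1, Nqo1 and Gpx1 were above the control by more than that at day 21, where 9.29% of all genes were. Txnrd1 was below it, where 7.54% were. Nqo1 only just passed, with a difference of 0.433 and an error SD of 0.216, and ran from 0.311 to 0.435 under the alternative processing. At day 55 Txnrd1 was again below, with 11.5% of all genes, and 0 members were above, with 2.36%. No member passed in either direction at day 35, day 45 or day 70. The shares of all genes above and below there were 1.98% and 5.25%, 1.32% and 13%, and 1.68% and 12.6%. Over the 6 arrays the median range of the 9 genes was 0.34 log2 units, beside 0.39 over the 12332 genes measured on every array. The ranges ran from 0.13 for Sod1 to 1.43 for Hmox1. The day 21 array held the highest level of 4 of the 9 genes, namely Hmox1, Nqo1, Sod1 and Gpx1. For Sod1 the day 45 array came within 0.01 log2 units of it. The day 21 array held the lowest level of 1, Gclc. How many of all genes were highest or lowest at day 21 was not counted, so these counts have no share beside them.

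**Figure D2:**
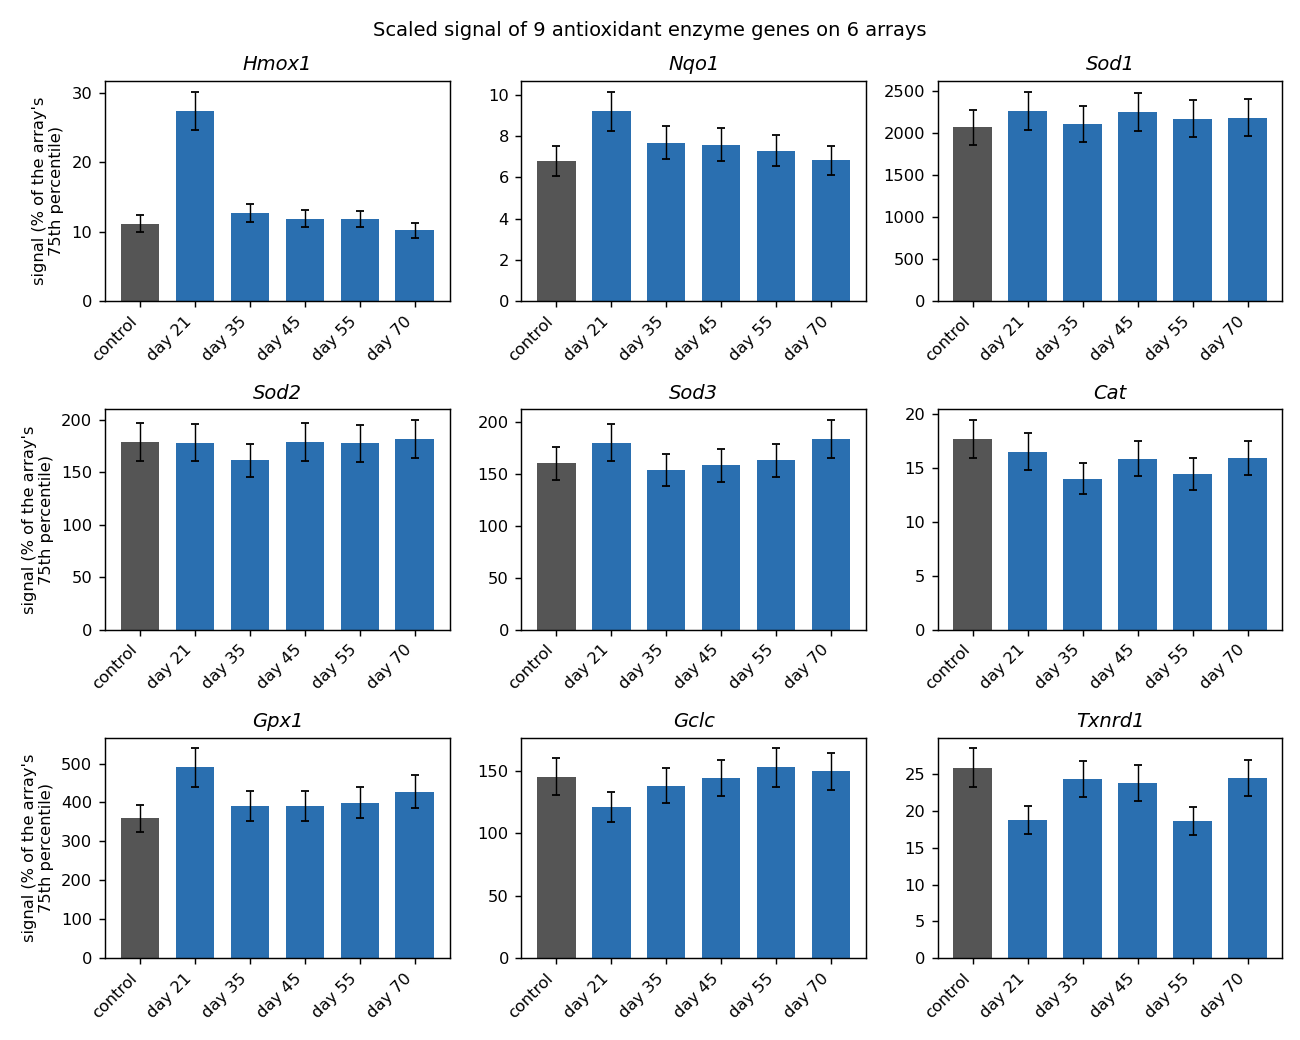
Scaled signal (y axes, percent of the array's 75th percentile, each starting at 0) of the 9 genes on the control array (grey) and at day 21 to day 70 after occlusion (blue), 1 array a bar. Error bars are 1 SD of the scanner software's error model. Hmox1 stands at 27.4% at day 21 and between 10.2 and 12.6% elsewhere.

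Hmox1 encodes the inducible heme oxygenase, which opens heme into biliverdin, iron and carbon monoxide. Its level was 11.2% of the 75th percentile in the control pool, 27.4% at day 21, 12.6% at day 35, 11.8% at day 45, 11.8% at day 55 and 10.2% at day 70. Day 21 stood alone above the other 5 arrays, which lay close together. The difference at day 21 was 1.30, a 2.46-fold rise. The probe is printed 10 times on the array, and its spots averaged 27.5 ± 2.57% at day 21 (SD, n = 10 spots), against 11.2 ± 0.604% in the control (SD, n = 7 spots left after outliers). These SDs describe spots of 1 pool, not animals. The lowest of the 10 spots at day 21 was 25.7%, while the highest of the 44 spots on the other arrays was 13.4%, so the arrays did not overlap. At the later days the differences were 0.18, 0.08, 0.08 and -0.14. Between day 35 and day 21, on the same slide, the difference was -1.12. Among the 3 arrays of the other slide, day 70 differed from day 45 by -0.22.

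Gpx1, the cytosolic glutathione peroxidase that reduces hydrogen peroxide with glutathione, is the other member printed 10 times. The array files place its probe at chr16_random:1046407-1046466 of rn4 on the plus strand. In RefSeq on GRCr8 the promoter of Gpx1 lies on chr8 instead, and why the placements differ was not looked into. Its level was 359% in the control pool, 490% at day 21, 392% at day 35, 390% at day 45, 399.6% at day 55 and 428% at day 70. All 5 occlusion arrays lay above the control, day 21 the most and day 70 next. The differences were 0.45 (1.37-fold), 0.13, 0.12, 0.16 and 0.25. The lowest spot at day 21 was 473.6% and the highest of the 48 spots elsewhere was 454.8%, at day 70, so the day 21 spots overlapped with no other array's. All 5 differences share the same control array. Against the mean of the other 5 arrays in its place, Gpx1 stood at 0.32 at day 21 and 0.08 at day 70. It lay below that baseline at day 35 (-0.07), day 45 (-0.08) and day 55 (-0.03). For the later days this mean includes the high day 21 array. It is another contrast than day minus control and cannot show whether those days exceeded the control.

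**Figure D3:**
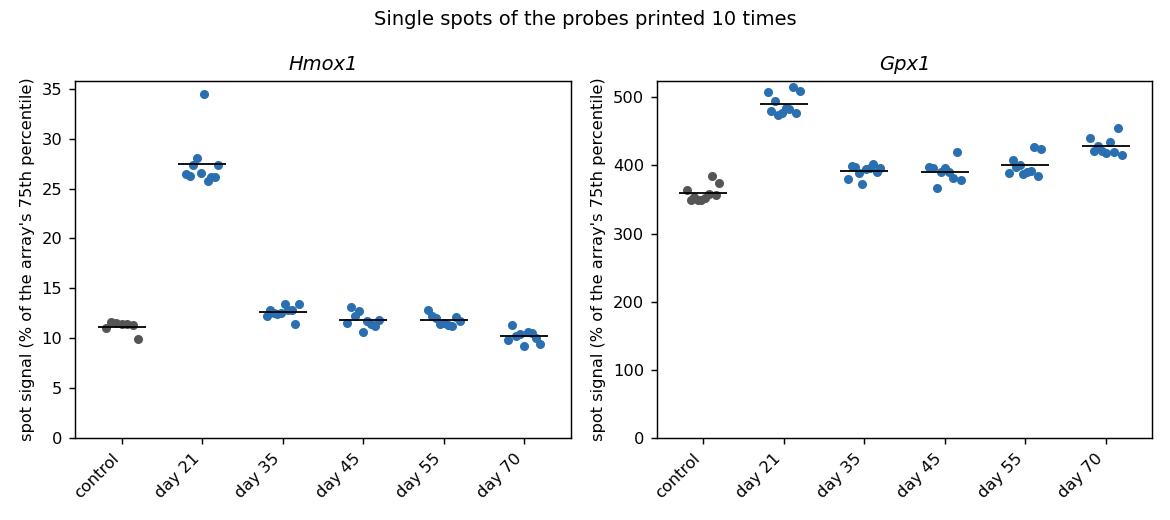
Signal of single spots (y axes, percent of the array's 75th percentile, from 0) of the Hmox1 and Gpx1 probes, each printed 10 times, on the 6 arrays. Lines are means over spots of 1 pooled sample. In both panels the day 21 spots, from 25.7% for Hmox1 and from 473.6% for Gpx1, lie above every spot of the other arrays.

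Nqo1 encodes a quinone reductase that transfers a pair of electrons at once and is a widely used readout of Nrf2 activity. Its level was 6.82% in the control pool, 9.20% at day 21, 7.68% at day 35, 7.59% at day 45, 7.30% at day 55 and 6.82% at day 70. It was highest at day 21, and the day 70 array stood at the control level. The differences were 0.43, 0.17, 0.15, 0.10 and 0.00, so it stayed under 2-fold at every day. It rests on 1 spot an array.

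The superoxide dismutases varied least. Sod1, the copper and zinc enzyme of the cytosol, read 2063% in the control pool, 2264% at day 21, 2104% at day 35, 2247% at day 45, 2167% at day 55 and 2180% at day 70. Its range of 0.13 was the narrowest of the 9 genes and within 1 error SD. Sod2, the manganese enzyme of mitochondria, read 179% in the control pool, 178% at day 21, 161% at day 35, 179% at day 45, 178% at day 55 and 182% at day 70. Only the day 35 array departed from the others by more than 0.1 log2 units, with a difference of -0.15. Sod3, the secreted enzyme, read 160% in the control pool, 180% at day 21, 154% at day 35, 158% at day 45, 163% at day 55 and 184% at day 70. Its differences of 0.17 at day 21 and 0.20 at day 70 were the widest of the 3 dismutases and lay within 1 error SD.

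Cat encodes catalase, which breaks hydrogen peroxide down in peroxisomes. Its level was 17.6% in the control pool, 16.5% at day 21, 14.0% at day 35, 15.8% at day 45, 14.4% at day 55 and 15.9% at day 70. All 5 occlusion arrays lay below the control, by -0.10, -0.34, -0.16, -0.29 and -0.15. None of these differences reached 2 error SDs, and all share the 1 control array. Against the mean of the other 5 arrays Cat stood above that baseline at day 21 (0.09), day 45 (0.02) and day 70 (0.03). That mean holds occlusion arrays beside the control, so it is another contrast than day minus control. The array files give this 60-base probe a span of 1945 bases, chr3:88683063-88685007 in rn4.

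The enzyme that starts glutathione synthesis has a catalytic subunit, encoded by Gclc, and a modifier subunit, encoded by Gclm. Gclc read 145% in the control pool, 121% at day 21, 138% at day 35, 144% at day 45, 153% at day 55 and 149% at day 70. It was lowest at day 21, with a difference of -0.27, and the later differences of -0.07, -0.01, 0.07 and 0.04 were near 0. The Gclm probe was not well above background on any of the 6 arrays, where its signal was 0.221 to 0.307% of the 75th percentile, and it gives no difference. That probe has a GC content of 15%. Of the 8 probes on the array at or below that content, 3 (37.5%) were below background on all arrays, beside 19.4% of all probes. The Gclm probe is itself among the 8 and the 3, and the part of GC content was not tested.

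Txnrd1, the cytosolic thioredoxin reductase, is the 1 member with a pair of probes, and they disagreed. The brighter probe, with 34 matched bases at chr7:23055528-23055561 of rn4, read 25.9% in the control pool, 18.8% at day 21, 24.4% at day 35, 23.8% at day 45, 18.7% at day 55 and 24.5% at day 70. The other probe, 9635 bases upstream, read 5.28% in the control pool, 6.72% at day 21, 5.13% at day 35, 4.83% at day 45, 6.40% at day 55 and 5.13% at day 70. Day 21 and day 55 were the low arrays at the downstream probe and the high arrays at the upstream one. At day 21 the differences were -0.47 downstream and 0.35 upstream, and at day 55 they were -0.47 and 0.28. On the other 3 days both probes lay within 0.13 of the control. Between the day 55 and day 45 arrays, which share a slide, the differences were -0.35 downstream and 0.41 upstream. With both probes averaged Txnrd1 stood at -0.06 at day 21 and -0.10 at day 55, so the gene as a whole has no settled direction. Whether the probes report different transcripts was not tested.

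**Figure D4:**
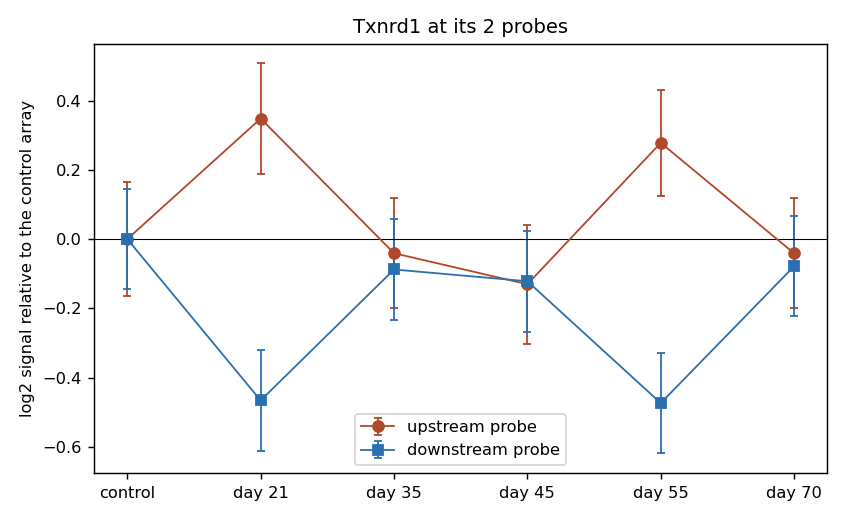
Log2 signal relative to the control array (y axis) of the upstream and downstream Txnrd1 probes on the 6 arrays (x axis), with 1 SD of each spot's error model. The probes part at day 21 (0.35 and -0.47) and day 55 (0.28 and -0.47) and lie together on the other arrays.

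Promoters were searched for the core of the antioxidant response element, the site that Nrf2 binds with small Maf proteins (TGACNNNGC), and for the AP-1 site (TGANTCA), on both strands. The windows ran from 250 bases before to 50 after the start, from RefSeq on GRCr8, and 8 members were matched, with 9 promoters. Hmox1 and Sod3 were not matched. The element's core was found in 3 of the 9, beside 12.1% of 33469 rat promoters, and the AP-1 letters in 0 of 9, beside 7.33%. The stretches printed are those of the 3 windows that held the core. Capitals mark the core, which lies on the opposite strand in each. The window of Nqo1, a known Nrf2 target, held neither motif. Sequence outside the windows was not searched, so this does not show that Nqo1 lacks the element. The Sod2 window is chr1:50050175-50050223 on the minus strand, the Gclm window chr2:213031943-213031991 on the plus strand and the Txnrd1 window chr7:22755954-22756002 on the minus strand.
Sod2: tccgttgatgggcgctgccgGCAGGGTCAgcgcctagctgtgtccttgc
Gclm: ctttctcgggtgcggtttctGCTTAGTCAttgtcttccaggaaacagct
Txnrd1: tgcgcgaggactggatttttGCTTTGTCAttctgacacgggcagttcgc

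The matches begin 35, 172 and 78 bases before the start of Sod2, Gclm and Txnrd1. Txnrd1 has another promoter in the table, chr7:22764802-22765101 on the minus strand, which held neither motif. A match of these letters is a description of the window and no evidence of binding. Neither Sod2 nor Txnrd1 changed by 2-fold on any array, and Gclm was not above background.

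The regulators of Nrf2 were measured on the same arrays. Nfe2l2, which encodes Nrf2, read 67.7% in the control pool, 96.5% at day 21, 73.6% at day 35, 78.3% at day 45, 78.2% at day 55 and 76.2% at day 70. It was highest at day 21, with a difference of 0.51, and lay 0.12 to 0.21 above the control afterwards. Keap1, whose protein marks Nrf2 for breakdown, lay below the control at every day, by -0.26, -0.12, -0.07, -0.35 and -0.20. Bach1 was not well above background on any array. Of the 10 regulators compared, 0 were 2-fold higher at any day, and 1, the small Maf gene Maff, was lower on the later slide. The Maff difference was -1.46 at day 55, and where it was not above background the bounds were -1.27 at day 45 and -1.59 at day 70. Over all genes 5.78%, 4.98% and 6.7% were 2-fold lower at day 45, day 55 and day 70. Another small Maf gene, Mafk, lay above the control on those days, by 0.45, 0.66 and 0.57.

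Genes that share a function with the members were counted in the same way. Of 29 other antioxidant enzymes, 0 passed 2-fold at day 21, day 35, day 45 and day 55, which at this list size is near the shares of all genes given above (3.61% higher and 1.88% lower at day 21). At day 21, 7 of the 29 lay above the control and 22 below it, where 39.5% of all genes lay above. The medians in order of the days were -0.11, -0.02, -0.03, -0.03 and -0.01. At day 70, 1 of the 29 was lower, the glutathione peroxidase gene Gpx2, at least 2-fold lower as a bound. Its other probe was above background at day 45 alone, with a bound of 2.94, so the probes disagreed. At day 21 the peroxiredoxin gene Prdx1 stood at 0.34 and Hmox2, the constitutive heme oxygenase, at -0.24. Glutathione reductase, encoded by Gsr, stood at 0.12. Of 15 other Nrf2 targets compared, 0 passed 2-fold at any day, again near the shares of all genes, with medians of 0.10, 0.03, 0.06, 0.04 and 0.07. Fth1, a ferritin heavy chain gene, was saturated on every array.

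Other genes of oxidant and metal handling shared the day 21 rise of Hmox1. Of 15 genes for oxidant sources, 5 were at least 2-fold higher at day 21, against 3.61% of all genes, while the median of the 15 was -0.04. Ncf1, which encodes an organizer subunit of the phagocyte NADPH oxidase, stood at 139% at day 21, against 24.0% in the control pool, a difference of 2.53. Cyba, the membrane subunit p22phox, differed by 2.04, the small GTPase gene Rac2 by 1.95, the myeloperoxidase gene Mpo by 1.46 and the oxidase subunit gene Ncf4 by 1.43. Cybb, the catalytic subunit of that oxidase, stood at -0.30 and was thus not among them. At day 45, 2 of the 15 were 2-fold lower, against 5.78% of all genes. They were the oxidase gene Duox1 (-1.14) and the nitric oxide synthase gene Nos1 (bound -1.07), although another Nos1 probe, printed 10 times, stood at -0.47. At day 70 Mpo was 2.81 above the control, and 0 of the 15 were lower. Over all genes 0.663% were higher and 6.7% lower at day 70. Neither direction had a gene past 2-fold at day 35 or day 55.

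Both metallothionein genes known to respond to metals and stress were higher at day 21, Mt2A by 2.15 and Mt1 by 1.30, whereas the brain-enriched Mt3 stood at 0.39. None of the 3 passed 2-fold on a later array. Among 14 heme and iron genes compared at day 21, 1 was 2-fold higher, against 3.61% of all genes. It was the ferroxidase gene Cp (ceruloplasmin), higher by 2.22, and another Cp probe gave 4.30. At day 45, day 55 and day 70 the 1 gene of that list past 2-fold was Hamp, which encodes the iron hormone hepcidin, with -1.46, -1.28 and -1.41. Over all genes 5.78%, 4.98% and 6.7% were 2-fold lower on those days. With 13, 14 and 14 genes compared, 1 gene is near those shares. The list's medians were -0.03, -0.07, -0.02, -0.13 and -0.07.

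Markers of other cell types moved on the same array as Hmox1. In bulk RNA, fewer cells of a type and less RNA in each cell cannot be told apart. Of 13 markers of microglia and macrophages compared, 9 were at least 2-fold higher at day 21, against 3.61% of all genes, with a median of 1.64. Their summed signal was 6969% of the 75th percentile at day 21, against 2308% in the control and 2185 to 2608% on the 4 later arrays. Such sums, here and for the lists below, give bright probes the most weight. Without C1qb, the brightest, this sum was 4925% at day 21 against 1776% in the control. Mrc1 was not above background on any array, and Cd163 was not in the control pool, at day 35 and at day 45. Of 7 markers of meninges and fibroblasts, all lay above the control at day 21 and 4 were 2-fold higher. They summed to 854.5% at day 21 against 299% in the control. Astrocyte markers summed to 9729% at day 21 against 7898%, with 7 of 8 above the control and 1 of 8 by 2-fold. Neuronal markers summed to 4522% against 5107%, with all 7 below the control and none by 2-fold. Red blood cell markers, which mark blood left in the tissue, summed to 7493% against 6438%. By their brightest probes all 6 lay above the control, with a median of 0.30, and none by 2-fold. Of all genes 39.5% lay above. Other probes differed in sign, with Hbb at -0.10, Ahsp at -0.04 and Hba-a1 at 0.39.

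Choroid plexus markers summed to 316% in the control pool, at least 5166% at day 21, 2644% at day 35, 302% at day 45, 309% at day 55 and 4403% at day 70. These sums come mostly from 1 gene, the thyroid hormone carrier Ttr, with at least 5066% at day 21, where its spot was saturated, against 288% in the control pool. Without Ttr the sums were 28.03% in the control pool, 100.4% at day 21, 55.8% at day 35, 19.2% at day 45, 31.4% at day 55 and 67.6% at day 70. They were high on 3 arrays, and on the last 2 of these, day 35 and day 70, Hmox1 differed from the control by 0.18 and -0.14. Of 8 such markers, 6 were 2-fold higher at day 21, 4 at day 35 and 5 at day 70. Over all genes those shares were 3.61%, 0.452% and 0.663%. Kcnj13 and Kl were not above background in the control pool. The list was not uniform. At day 70 Clic6 was 2-fold lower (-1.21) and Aqp1 stood at -0.37. At day 45, 2 of the 6 compared were 2-fold lower, and at day 55, 1 was higher (Otx2, 1.38) and 1 lower. Over all genes 5.78%, 4.98% and 6.7% were lower at day 45, day 55 and day 70. The part of microglia and macrophages, meninges and the other cell types in the Hmox1, Gpx1 and Nqo1 values was not tested.

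**Figure D5:**
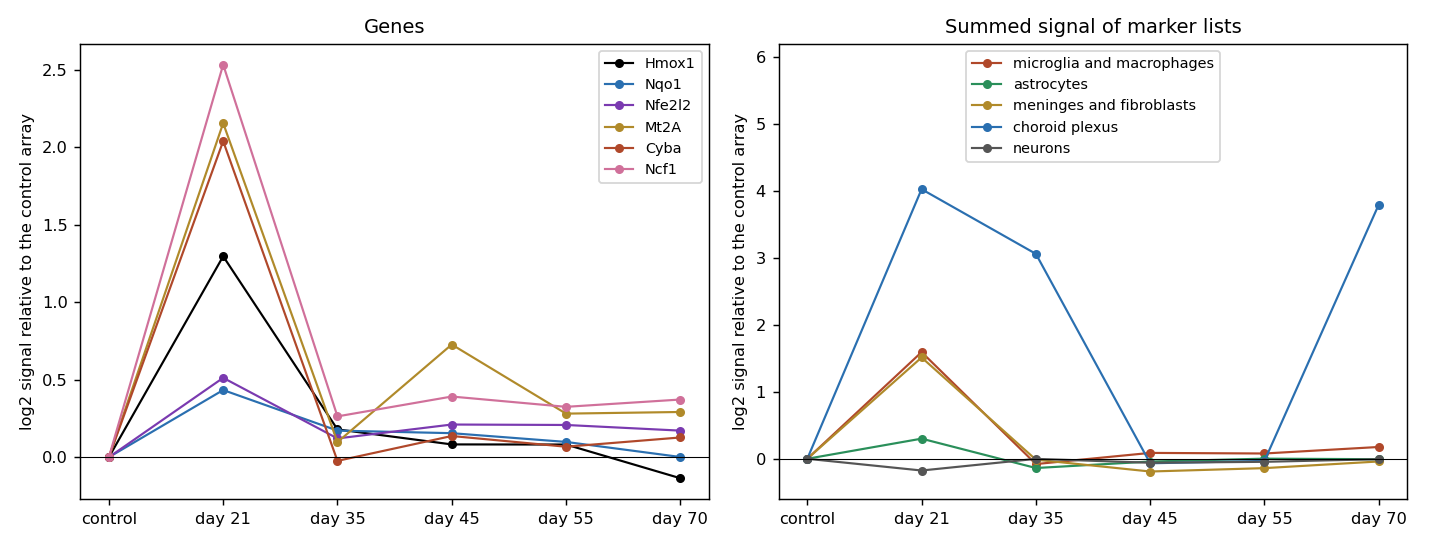
Log2 signal relative to the control array (y axes) on the 6 arrays (x axes) for 6 genes (left) and for the summed signal of 5 marker lists (right), 1 array a point. Hmox1, Ncf1, Cyba and Mt2A peak at day 21, as do the microglia and macrophage markers (6969% against 2308% in the control), while choroid plexus markers, mostly Ttr, which was saturated at day 21, are also high at day 35 and day 70.

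The genes whose 5 differences lay nearest to each of the 4 widest-ranging members were sought among the 12332 genes measured on every array, by the root mean square distance. For Hmox1 they were Lgals1 (0.087), Spint1, Lcat, Icam1 and Sdc1 (0.13), whose differences at day 21 ran from 1.14 to 1.39. For Gpx1 they were Emp2 (0.031), Nmi, Myo1d, Bri3bp and Elovl7 (0.050), and for Nqo1 Nrtn (0.028), Cyp4f6, Sox4, Cdk2ap2 and Fam83d (0.055). For the downstream Txnrd1 probe they were Usp11 (0.036), Sybu, Rpl10l1, Zfp777 and Alg12 (0.068). These distances rest on 5 differences that share 1 control array.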

How the data were processed

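Per the file headers, the authors deposited 1 scanner file per array, read with Agilent Feature Extraction 10.7.3.1, whose processed intensity is background-subtracted and not scaled between arrays. The dye in the labels is Cy5, but the files hold the green channel, which was used. A further table that the authors deposited holds intensity values for 41507 of 42877 spots, with medians of 298.0 to 298.4 on every array. Its making is not stated in the labels.

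Outlier spots were left out (346 to 470 an array), the log2 signal was scaled to the array's 75th percentile, and spots of a probe were averaged. The brightest probe stands for a gene. Probes were named through RefSeq GRCr8, 17328 by accession, 2632 by symbol and 717 by synonym, with 187 file names kept and 9503 probes unnamed. Where a probe was above background on the brighter array alone, or the brighter spot was saturated, the difference is a bound. Probes printed 10 times had a median spot SD of 0.051 to 0.073 log2 units. Members and lists were chosen with earlier results of these data known. Named list genes are Nfe2l2, Keap1, Bach1 and those past 2-fold, up to 8 a list and day. Prdx1, Hmox2, Gsr, Fth1, Cybb, Mafk and Mt3 were added after their values were seen. Alternatives covered background correction, normalization (limma 3.58.1 in R 4.3.3), probes, filters and baseline. The step that counts changed genes was tested on simulated data.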

Additional observations from a re-analysis of the deposited data

How the results depend on the processing

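The counts of members at least 2-fold higher or lower were the same under every alternative run. Hmox1 at day 21 stayed above 2-fold in 9 of 9 alternatives, from 1.05 (2.07-fold, normexp background correction) to 1.35 (quantile normalization). Averaging probes and the filter on all 6 arrays could not move this value, since Hmox1 has 1 probe and passes that filter. Scaling to the median in place of the 75th percentile moved the members' median to 0.12 at day 45, 0.15 at day 55 and 0.12 at day 70, and it put the median of all genes at day 45 at 0.06, against -0.06. With the median signal minus background the members' median at day 35 was 0.039, against -0.06, and it was -0.035 at day 55 when the other 5 arrays' mean served as baseline. Of the 45 single differences, 27 moved by more than 0.078 log2 units, the spot SD of a difference, with median scaling, and 7 changed sign. Median scaling shifts every gene of a day by the same amount. The 27 are thus all members at day 45, day 55 and day 70, moved together, and not 27 separate changes. With the other 5 arrays' mean as baseline 25 moved and 21 changed sign, Gpx1 at 3 days and Cat at 3 days among them. That baseline mixes the control with occlusion arrays, so these sign changes come from another contrast than day minus control. The deposited values moved 14, quantile normalization 13, median signal minus background 7 and normexp 6. Kept outlier spots moved 0, and averaging probes, which can act on Txnrd1 alone, moved 2. The filter on all 6 arrays also moved 0, but it could move none, since the 9 genes all pass it. No value past 2-fold changed sign. Over all genes at day 21, 502 were higher and 262 lower, against 240 and 29 with normexp. With normexp the counts on the later days were 13 and 37, 17 and 108, 30 and 77, and 39 and 130, against 63 and 157, 82 and 795, 91 and 695, and 92 and 930. Quantile normalization moved the split between higher and lower genes on those days to 115 and 134, 201 and 304, 187 and 419, and 227 and 408. No paired analysis was possible because each group has 1 array. Signal over background limits Gclm, which was not measurable.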
